A study of Mus musculus with 6 samples.

Results

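The enzymes of the pentose phosphate pathway and of nucleotide synthesis were followed in BV2 cells, an immortalised mouse microglial line, through 36 genes taken from a list that covers the pentose phosphate steps, purine and pyrimidine synthesis, deoxynucleotide synthesis and salvage. Of these 36 genes, 33 were among the 17872 genes of the count table and 32 were among the 13403 genes with enough reads to be tested. G6pdx, Aprt and Tk1 were not analysed here, and Nme1 had 3 to 13 counts in a library and was not tested. RNA was sequenced from 2 groups of 3 libraries, both in a BV2 background: WT cells and cells of genotype Tfam knockout, made with CRISPR-Cas9. The Tfam protein coats mitochondrial DNA and is needed to transcribe it. No other agent is listed for either group, and puromycin at 2 µg/mL is given as following the edit in a protocol attached to all samples, so whether WT cells received it is not known and its part in any difference cannot be told apart from the genotype. From the labels it is not known if the edited cells were 1 clone or a pool, or if replicates came from separate cultures. The p-values therefore reflect the spread among these libraries, which could be technical.

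The pentose phosphate pathway takes glucose 6-phosphate off glycolysis. Its oxidative arm makes NADPH and ribulose 5-phosphate, and its non-oxidative arm passes carbon between sugar phosphates in both directions. Ribose 5-phosphate is activated to phosphoribosyl pyrophosphate, on which the purine ring is built stepwise to IMP and to which the pyrimidine ring is attached as orotate. IMP is then turned into AMP or GMP, UTP into CTP, and ribonucleotide reductase with thymidylate synthase supplies the deoxynucleotides for DNA. Salvage enzymes re-use bases and nucleosides. One pyrimidine step, that of dihydroorotate dehydrogenase, takes place at the mitochondrial inner membrane and hands its electrons to the respiratory chain. In macrophages and microglia the oxidative arm also feeds the NADPH oxidase and antioxidant defence.

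Libraries held 13850691 to 28418133 counts, and no tested gene of the list had fewer than 211 counts in any library. Log2 expression correlated at 0.9885 or more within a group and at 0.9694 or less between groups, so no library stood apart from its group. Tfam mRNA itself was at 39.04, 38.5 and 37.1 CPM in the WT libraries and 40.98, 42.7 and 43.2 CPM in those labelled Tfam knockout (log2 fold change 0.14 ± 0.0869 SE, edgeR adjusted p = 0.193). It was not lower, and it passed as higher with library totals as the only scaling (adjusted p = 0.0403) and in the authors' log2 table (adjusted p = 0.0349). Each direction below is therefore one between WT libraries and libraries labelled Tfam knockout, called labelled knockout libraries for short. Of 11 macrophage and microglia markers 9 were in the table, among them Cd68 (1264 CPM in WT), Csf1r (501 CPM) and Ptprc (263 CPM), while the microglial identity genes Tmem119, Sall1, Cx3cr1 and Aif1 were at 0.517, 0.0454, 1.82 and 2.97 CPM. Of the 7 tested, 1 rose and 4 fell. The markers summed to 2436 to 2656 CPM in WT and 1964 to 2094 CPM in labelled knockout libraries. Of 4 markers each, 2 for neurons and 1 each for astrocytes, fibroblasts and lymphocytes were in the table. The absent ones are not read as low. Summed markers of these 4 cell types stayed at 2.55 CPM or less in each library. Those of oligodendrocytes, mostly Mbp, were at 24.4 to 25.5 CPM in WT and 11.9 to 14.2 CPM in labelled knockout libraries. The part of other cell types in the results was not tested.

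Levels are given in CPM, counts per 1000000 counts after TMM scaling, with the libraries of each group in the order of replicates 1 to 3. Of the 32 tested genes, 16 rose (50%) and 5 fell (15.6%) in edgeR's quasi-likelihood test at the threshold used throughout, an adjusted p below 0.05, and 11 did not pass. Among all tested genes 21.3% rose and 22.9% fell, or 44.2% in either direction. The median log2 fold change was 0.19 over the 32 genes and 0.00 over all tested genes. Groups did not overlap for 23 of the 32 genes (71.9%), against 52.9% of all tested genes. Changes were mostly small: Prps1, Ctps, Rrm2 and Tyms rose at least 1.5-fold, as did 8.21% of all tested genes. The gene that fell most, Pgls, was at 0.674-fold of WT, short of the 1.5-fold by which 11.3% of all tested genes fell. A call that held under each of the 15 alternative fits was found for 14 of the 21 genes: Rpe, Prps1, Gart, Pfas, Adsl, Gmps, Cad, Umps, Ctps, Rrm1, Rrm2 and Tyms among those that rose, and Pgls and Hprt among those that fell. Only 3 genes passed as lower without WT replicate 1, without WT replicate 2 or without knockout replicate 3, and with library totals 2 did.

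**Figure D1:**
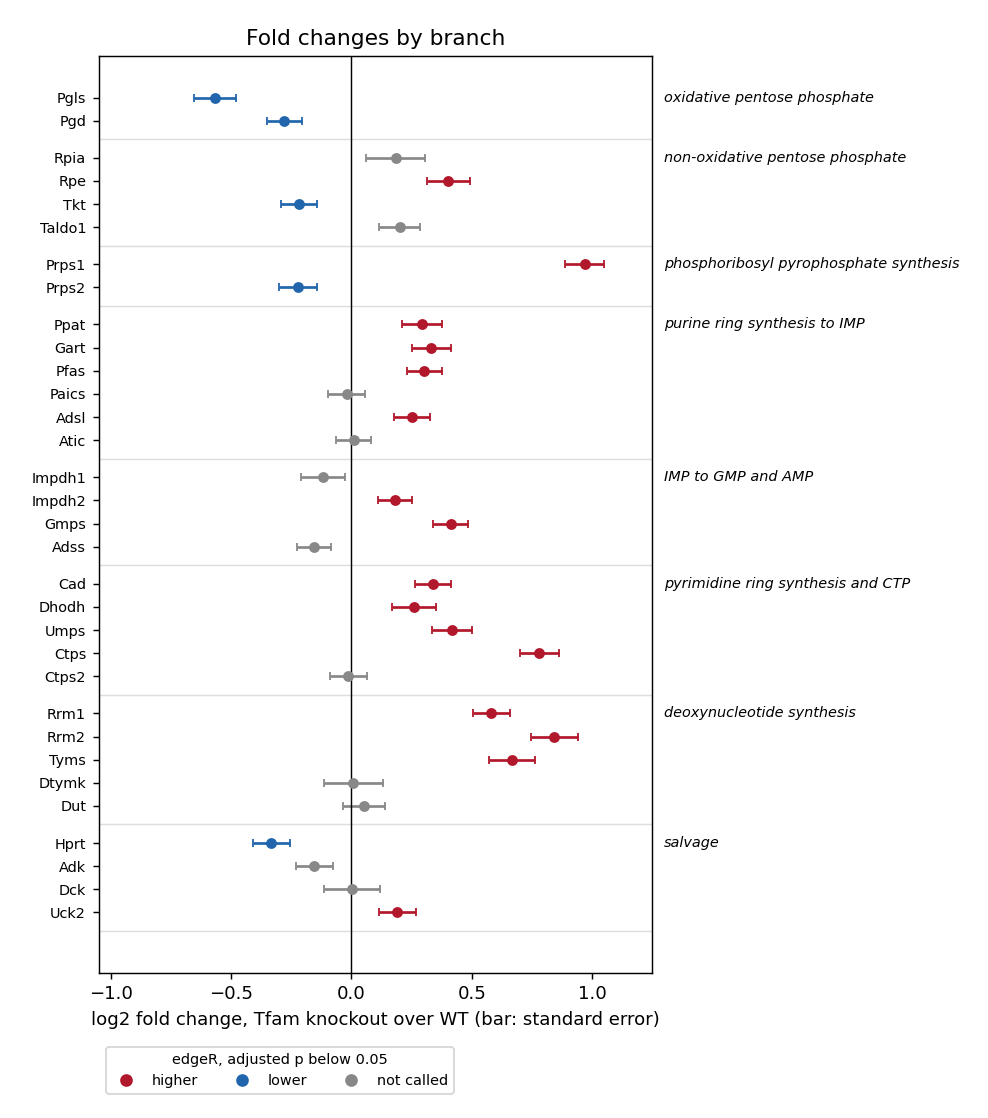
Log2 fold change of each tested gene, labelled Tfam knockout over WT (horizontal axis, bars are standard errors), grouped by branch; red passed as higher, blue as lower and grey did not pass (edgeR, 3 libraries a group). Both tested genes of the oxidative pentose phosphate arm lie left of 0. The genes from Ppat to Tyms that passed all lie right of 0, up to 0.84 for Rrm2.

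The oxidative arm was lower in the labelled knockout libraries at both of its measured steps. Pgls, the lactonase that opens the ring made by glucose 6-phosphate dehydrogenase, was at 217, 248 and 238 CPM in WT and 179, 143 and 152 CPM in labelled knockout libraries. Every labelled knockout library lay below every WT library, and knockout replicate 2 was lowest. Pgls fell by 0.57 on the log2 scale (SE 0.0873, adjusted p = 4.97e-05). Pgd, the second NADPH-making dehydrogenase, was at 264, 261 and 264 CPM in WT, a narrow spread, and at 229.5, 201 and 219 CPM in labelled knockout libraries. It fell by 0.28 (SE 0.0735, adjusted p = 0.00517), and with library totals it missed the threshold (adjusted p = 0.0537). Exons of Pgls share 20.6% of their bases with Fam129c, which itself fell (12.8 to 4.66 CPM), and a library kit that does not mark strand cannot separate reads of these genes.

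The non-oxidative arm did not move one way. Rpe, the epimerase that converts ribulose to xylulose 5-phosphate, was at 46.1, 44.5 and 44.9 CPM in WT and 62.9, 53.9 and 62.7 CPM in labelled knockout libraries, with no overlap. It rose by 0.40 (SE 0.0876, adjusted p = 0.00122). Rpe shares 17.9% of its exon bases with Kansl1l, which was at 24.1 and 23.9 CPM in the groups and did not pass. Rpia, the isomerase that makes ribose 5-phosphate, was at 19.9, 20.9 and 20.03 CPM in WT and 22.6, 19.3 and 27.5 CPM in labelled knockout libraries. Its groups overlapped through knockout replicate 2, and the difference of 0.19 (SE 0.123) did not pass (adjusted p = 0.239). Transketolase (Tkt) was the most highly counted gene of the whole set, at 479, 482 and 470.4 CPM in WT and 434, 385 and 412 CPM in labelled knockout libraries. It fell by 0.22 (SE 0.0759, adjusted p = 0.0275), a call that held only without knockout replicate 1 among the 6 fits that each left out a library and that was lost with library totals (adjusted p = 0.2005). Transaldolase (Taldo1), at 241, 267 and 244 CPM in WT and 314, 253 and 296 CPM in labelled knockout libraries, had overlapping groups and a log2 fold change of 0.20 (SE 0.0853, adjusted p = 0.0652). It passed as higher in 5 alternatives, among them library totals and the fits without WT replicate 2 or knockout replicate 2.

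Steps at the edge of the pathway, from a list of 13 genes of which 7 were tested, gave 1 gene that rose and 2 that fell, with a median of -0.16, no more calls than the 44.2% of all tested genes. The phosphoglucomutase Pgm2, whose enzyme class interconverts sugar phosphates, fell by 1.73 (SE 0.0803, adjusted p = 2.82e-11), from 313, 341 and 344 CPM to 109, 92.8 and 100 CPM. Which phosphoglucomutase the symbol Pgm2 stands for was not checked here, so a pentose role is not read from its fall. Sedoheptulokinase (Shpk), which feeds sedoheptulose into the non-oxidative arm, fell by 0.75 (SE 0.165, adjusted p = 0.00136) from a WT mean of 9.69 CPM. Both moved further than any of the core pentose phosphate genes.

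The ribose activation step showed opposite changes of its isoenzymes. Prps1 was at 65.7, 59.8 and 65.1 CPM in WT and 120.4, 116 and 137 CPM in labelled knockout libraries, so the lowest of the latter lay far above the highest WT library. It rose 1.96-fold, or 0.97 on the log2 scale (SE 0.0814, adjusted p = 5.51e-08), more than any other gene of the set. Prps2 was at 89.5, 86.1 and 77.9 CPM in WT and 75.3, 74.1 and 68.2 CPM in labelled knockout libraries, groups that did not overlap but lay close together. It fell by 0.22 (SE 0.0797, adjusted p = 0.0321), a call lost without WT replicate 1, WT replicate 2 or knockout replicate 3, with library totals and, at the highest adjusted p of these (0.2705), in the authors' log2 table. Prpsap2, a protein that binds these synthetases, rose by 0.26 (SE 0.0822, adjusted p = 0.0177), a call lost without WT replicate 3 or knockout replicate 3.

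The coding sequences of Prps1 and Prps2 are both 957 bases long and identical at 79.9% of aligned bases, with no identical run over 20 bases, so reads longer than that differ between them. The 120 bases before each start site, from RefSeq on GRCm38.p6, are shown because this pair moved in opposite directions, with CCAAT boxes (CCAAT on either strand) in capitals.
Prps1 (chrX:140456483-140456602, plus strand): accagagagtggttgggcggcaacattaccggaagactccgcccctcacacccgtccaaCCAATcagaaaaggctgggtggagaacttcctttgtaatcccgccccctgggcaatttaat
Prps2 (chrX:167382750-167382869, minus strand): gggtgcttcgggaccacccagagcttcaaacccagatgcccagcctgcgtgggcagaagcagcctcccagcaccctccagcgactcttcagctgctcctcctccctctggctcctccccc
Prps1 holds 1 such box in this stretch and Prps2 holds 0. A match describes the letters only, and CCAAT was found in the windows (250 bases before to 50 after a start site) of 41.2% of the 34 listed genes with a RefSeq promoter and of 41.1% of all 27025 genes with one.

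**Figure D2:**
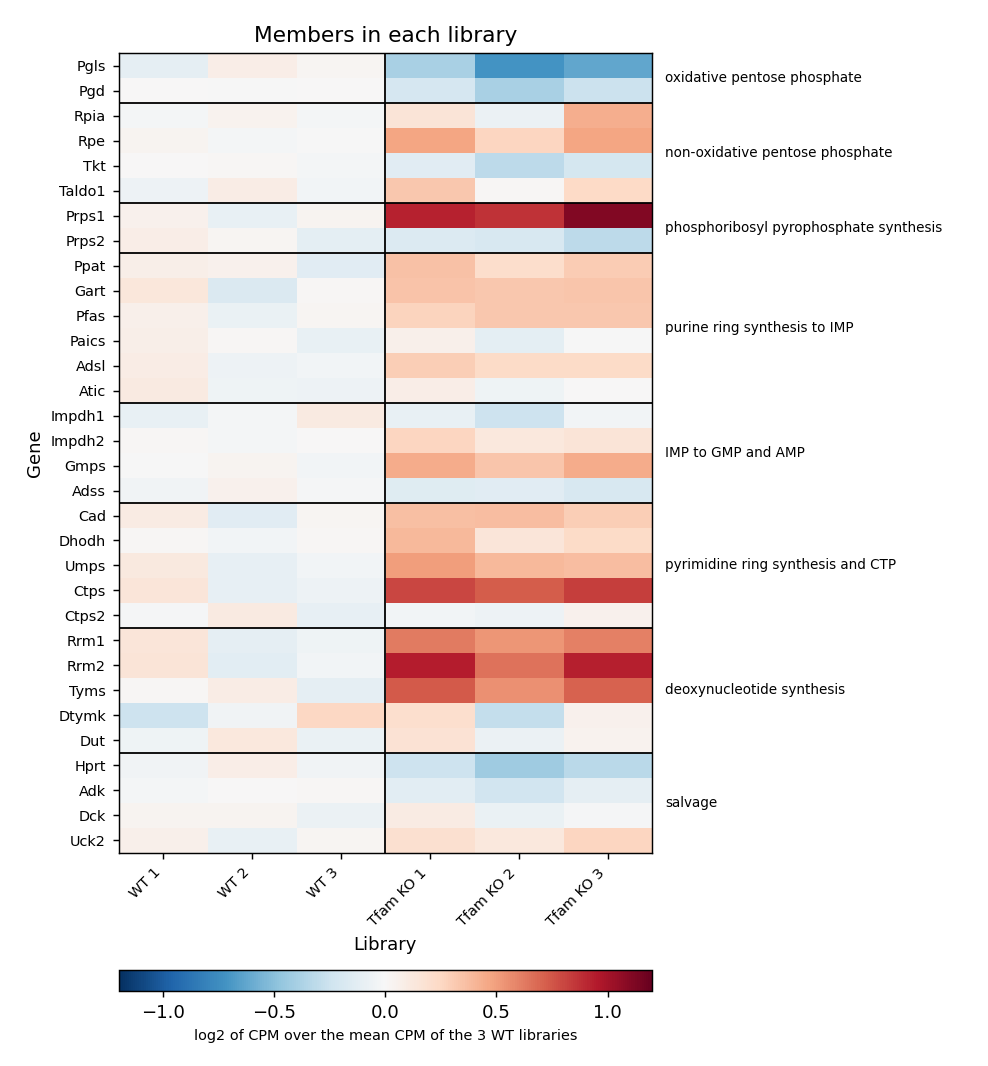
Log2 of the CPM of each tested gene over its mean in the 3 WT libraries (colour), with genes in rows by branch and the 6 libraries in columns. Prps1, Ctps, Rrm1, Rrm2 and Tyms are red in all 3 labelled knockout libraries, while Pgls, Pgd and Hprt are blue in all 3.

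Purine ring synthesis rose at 4 of its 6 enzymes, where 21.3% of all tested genes rose. The rise was much the same in each of the 4 (0.25 to 0.33 on the log2 scale), with a median of 0.27 over the 6 genes. Ppat, the amidotransferase of the first committed step, was at 59.3, 58.5 and 51.5 CPM in WT and 72.2, 65.5 and 69.9 CPM in labelled knockout libraries. It rose by 0.29 (SE 0.0835, adjusted p = 0.00891), and without WT replicate 3 the adjusted p was 0.0536. Gart, a protein with several activities early in the route, was at 154, 124 and 141 CPM in WT and 177, 175 and 175 CPM in labelled knockout libraries, the latter close together. It rose by 0.33 (SE 0.0799, adjusted p = 0.00272). Gart shares 19.7% of its exon bases with Gm15964, a gene at 2.66 CPM in WT and 3.29 CPM in labelled knockout libraries. Pfas, which adds an amino group from glutamine, was at 87.2, 79.1 and 84.99 CPM in WT and 100.5, 105 and 105 CPM in labelled knockout libraries, and rose by 0.30 (SE 0.0727, adjusted p = 0.00267). Adsl, the lyase used both here and on the way to AMP, was at 86.1, 77.8 and 79.04 CPM in WT and 99.5, 95.2 and 94.7 CPM in labelled knockout libraries, and rose by 0.25 (SE 0.0737, adjusted p = 0.0104). In none of these 4 genes did a labelled knockout library reach down to a WT library, and 52.9% of all tested genes had groups apart.

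The bifunctional enzymes Paics and Atic did not pass. Paics was at 258, 248 and 232 CPM in WT and 257, 226 and 244 CPM in labelled knockout libraries, with a log2 fold change of -0.02 (SE 0.0764, adjusted p = 0.861). Atic, which closes the ring to IMP, was at 186, 166 and 165 CPM in WT and 182, 166 and 173 CPM in labelled knockout libraries, with a log2 fold change of 0.01 (SE 0.0742, adjusted p = 0.934). In both genes the groups overlapped, and the sign of each depended on the fit. Paics and Ppat are head-to-head neighbours whose exons share 272 bases in the annotation, 8.67% of those of Paics and 6.15% of those of Ppat, so a few reads could be counted for either. Beside this shared start, Ppat rose and Paics did not pass.

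After IMP, Gmps and Impdh2 on the way to GMP rose, and Impdh1 and the AMP-forming Adss did not pass. Gmps, which aminates XMP to GMP, was at 73.1, 74.96 and 71.5 CPM in WT and 100, 92.5 and 99.8 CPM in labelled knockout libraries, and rose by 0.41 (SE 0.0730, adjusted p = 2.05e-04). The groups were well apart. Impdh2, the IMP dehydrogenase of dividing cells, was at 206, 201 and 205 CPM in WT and 244, 223 and 227 CPM in labelled knockout libraries, and passed narrowly with 0.18 (SE 0.0706, adjusted p = 0.0469). That call was lost without WT replicate 2 or 3 and without knockout replicate 1 or 3 (adjusted p up to 0.1325). Its value is also uncertain because of Impdh2-ps, a copy that covers 83.2% of the transcript at up to 99.7% identity. That copy drew 8161 counts against 24083 for Impdh2 over the 6 libraries. Impdh2-ps rose as well (68.2 to 80.04 CPM, adjusted p = 0.0290), a call lost in 5 alternatives (adjusted p up to 0.1135). Impdh1 was at 51.4, 53.9 and 59.02 CPM in WT and 51.6, 46.1 and 53.6 CPM in labelled knockout libraries and did not pass (-0.12, SE 0.0901, adjusted p = 0.309).

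Adenylosuccinate synthetase (Adss), the first step from IMP to AMP, was at 217, 229.9 and 221 CPM in WT and 201, 203 and 195 CPM in labelled knockout libraries. Its groups did not overlap, yet the difference of -0.16 (SE 0.0692) missed the threshold (adjusted p = 0.0780), and it passed as lower only with a filter of 5 CPM. Adssl1, its muscle-type isoenzyme and the more highly counted of the pair in WT, fell by 1.283 (SE 0.0833, adjusted p = 2.15e-09), from 438, 501 and 522 CPM to 208, 189 and 204 CPM. Gmpr, which returns GMP to IMP, fell by 0.61 (SE 0.0951, adjusted p = 5.41e-05), from a mean of 57.8 to 37.7 CPM.

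Pyrimidine synthesis rose at every step up to UMP and at 1 of the CTP synthases, where 21.3% of all tested genes rose. Cad, the multifunctional protein that starts the route, was at 183, 155 and 173 CPM in WT and 218, 220.0 and 209 CPM in labelled knockout libraries, and rose by 0.34 (SE 0.0759, adjusted p = 0.00153). Umps, which attaches orotate to phosphoribosyl pyrophosphate and makes UMP, was at 65.95, 56.97 and 59.6 CPM in WT and 86.3, 79.5 and 78.5 CPM in labelled knockout libraries, and rose by 0.42 (SE 0.0817, adjusted p = 5.00e-04). Both genes kept the groups apart. Dhodh, the mitochondrial step between them, was at 42.5, 41.1 and 42.5 CPM in WT and 54.96, 46.5 and 49.4 CPM in labelled knockout libraries, with knockout replicate 2 nearest to WT. It rose by 0.26 (SE 0.0904, adjusted p = 0.0269), the least of the 4 genes that passed here, and the call was lost without WT replicate 2 or 3 and without knockout replicate 1 or 3 (adjusted p up to 0.1112).

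Ctps, the CTP synthase that amidates UTP, was at 84.5, 71.5 and 73.5 CPM in WT and 134, 126 and 136 CPM in labelled knockout libraries. It rose 1.72-fold, or 0.78 on the log2 scale (SE 0.0792, adjusted p = 5.32e-07), with every labelled knockout library well above every WT library. Its isoenzyme Ctps2 was at 94.4, 103 and 88.8 CPM in WT and 93.1, 91.5 and 98.98 CPM in labelled knockout libraries, overlapping groups with a log2 fold change of -0.01 (SE 0.0768, adjusted p = 0.905).

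Deoxynucleotide synthesis rose at ribonucleotide reductase and at thymidylate synthase, where 21.3% of all tested genes rose. The 3 genes of these enzymes kept the groups apart, as did 52.9% of all tested genes. Rrm1, the large subunit of ribonucleotide reductase, was at 139, 117 and 121 CPM in WT and 193, 181 and 192 CPM in labelled knockout libraries, and rose by 0.58 (SE 0.0782, adjusted p = 1.23e-05). Rrm2, the small subunit that is made in S phase, was at 46.7, 38.5 and 40.97 CPM in WT and 80.7, 66.1 and 80.3 CPM in labelled knockout libraries. It rose 1.79-fold, or 0.84 on the log2 scale (SE 0.0985, adjusted p = 2.65e-06), and knockout replicate 2 was the lowest of its group. Tyms, which methylates dUMP to dTMP, was at 31.5, 33.2 and 29.01 CPM in WT and 52.1, 45.7 and 51.2 CPM in labelled knockout libraries, and rose by 0.67 (SE 0.0947, adjusted p = 2.23e-05).

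The steps on either side of thymidylate synthase did not pass. Dut, which hydrolyses dUTP and so supplies dUMP, was at 64.7, 73. and 63.2 CPM in WT and 75.5, 63.7 and 69.1 CPM in labelled knockout libraries (0.05, SE 0.0869, adjusted p = 0.651). Dtymk, which phosphorylates dTMP, was at 55.9, 64.3 and 78.5 CPM in WT and 75.9, 54.2 and 68.6 CPM in labelled knockout libraries (0.01, SE 0.123, adjusted p = 0.966), with libraries of both groups spread over the same range. Nme1, a nucleoside diphosphate kinase, drew 43 counts over all 6 libraries. Its exons overlap those of the readthrough gene Gm20390, the rule for such reads in the authors' counting was not given in the sources used here, and its level is not read further.

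The 120 bases before the start sites of the ribonucleotide reductase genes are shown because both subunits rose together, again from RefSeq on GRCm38.p6 with CCAAT in capitals.
Rrm1 (chr7:102441575-102441694, plus strand): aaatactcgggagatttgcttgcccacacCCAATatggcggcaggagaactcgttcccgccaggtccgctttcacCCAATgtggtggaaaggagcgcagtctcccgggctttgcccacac
Rrm2 (chr12:24708134-24708253, plus strand): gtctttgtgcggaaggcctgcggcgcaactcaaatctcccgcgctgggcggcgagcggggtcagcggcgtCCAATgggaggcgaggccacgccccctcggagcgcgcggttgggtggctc
Rrm1 holds 2 CCAAT boxes and Rrm2 holds 1. None of 4 E2F-type motifs searched on both strands (TTTCCCGC, TTTCGCGC, TTTGCCGC and TTTGGCGC) was in either window, and among the listed genes they were found in Ppat and Prps2 (5.88%, against 2.61% of all genes).

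Genes of S phase and proliferation moved beside this branch. Of a list of 20, 19 were tested. Of these 16 rose, none fell and 3 missed the threshold, where 21.3% of all tested genes rose and 22.9% fell. This list, like the others, was chosen with earlier results of these data known. The median was 0.67, and the summed level ran from 1857 to 2108 CPM in WT and from 2792 to 2898 CPM in labelled knockout libraries. Ccna2 (1.21), Top2a (0.97), Ccnb1 (0.93) and Gins1 (0.83) had the largest log2 fold changes among those that passed, while Pcna (0.07), Ccne1 (-0.24) and Ccne2 (0.22) did not pass. In RNA of whole cultures, more cells in S phase and more RNA per cell cannot be told apart. The part of proliferation in the nucleotide genes' differences was not tested. Enzymes that check the deoxynucleotide pool, 8 genes tested, had 2 higher and 2 lower with a median of 0.05, shares close to those of all tested genes (21.3% and 22.9%). Itpa, which removes deaminated purine nucleotides, rose by 0.47 (SE 0.0935, adjusted p = 6.19e-04) and Rrm2b, the small reductase subunit used outside S phase, rose by 0.32 (SE 0.0953, adjusted p = 0.0114, lost without WT replicate 3). Nudt1, which clears oxidised purine nucleotides, fell by 0.51 (SE 0.108, adjusted p = 9.64e-04) and Samhd1, which hydrolyses deoxynucleotides, fell by 0.33 (SE 0.0687, adjusted p = 7.78e-04).

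Salvage had 1 measured gene that rose, 1 that fell and 2 that did not pass. Among all tested genes 21.3% rose and 22.9% fell. Hprt, which returns hypoxanthine and guanine to nucleotides with phosphoribosyl pyrophosphate, was at 321, 350.1 and 321 CPM in WT and 278, 245 and 264 CPM in labelled knockout libraries. It fell by 0.33 (SE 0.0770, adjusted p = 0.002), with no overlap between groups, while Ppat, which draws on the same substrate, rose. Uck2, a uridine and cytidine kinase, was at 305, 276 and 297 CPM in WT and 335, 319 and 349 CPM in labelled knockout libraries and passed narrowly with 0.19 (SE 0.0752, adjusted p = 0.0476). That call was lost without WT replicate 2 or 3 and without knockout replicate 1 or 3 (adjusted p up to 0.2034). Adk, which phosphorylates adenosine, was at 71.1, 72.8 and 73.2 CPM in WT and 66.1, 61.9 and 67.1 CPM in labelled knockout libraries. Its groups were apart but the difference of -0.15 (SE 0.0756) did not pass (adjusted p = 0.110). Dck, the deoxycytidine kinase, was at 16., 15.97 and 14.9 CPM in WT and 16.7, 14.8 and 15.5 CPM in labelled knockout libraries, with a log2 fold change of 0.00 (SE 0.116, adjusted p = 0.992). In a further list of 13 makers and salvage genes 3 rose and 4 fell (median -0.10), against 21.3% and 22.9% of all tested genes. Beside Adssl1 and Gmpr, the nucleoside transporter Slc29a3 fell by 0.64 (SE 0.0912, adjusted p = 2.21e-05) and the mitochondrial thymidine kinase Tk2 fell by 0.37 (SE 0.0980, adjusted p = 0.00491). Among those that rose, Uck1 rose by 0.29 (SE 0.0896, adjusted p = 0.0142), a call lost without WT replicate 2 or knockout replicate 3. Uprt rose by 0.51 (SE 0.175, adjusted p = 0.0263), with overlapping groups and a call lost in 6 alternatives.

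For isoenzymes that catalyse the same step, the ratio of a pair within a library does not depend on how libraries are scaled. The count ratio Prps1 to Prps2 was 0.735, 0.695 and 0.836 in WT and 1.599, 1.57 and 2.02 in labelled knockout libraries, and the groups were far apart. Ctps to Ctps2 changed in the same way, from 0.895, 0.696 and 0.827 to 1.43, 1.38 and 1.37. Rrm2 to Rrm2b went from 1.42, 1.29 and 1.42 to 2.001, 1.796 and 2.14. For Adss to Adssl1 the ratio was 0.494, 0.459 and 0.423 in WT and 0.968, 1.07 and 0.9595 in labelled knockout libraries. Impdh1 to Impdh2 was the pair that differed least, at 0.249, 0.268 and 0.288 in WT and 0.212, 0.207 and 0.236 in labelled knockout libraries. The differences in the mean log2 ratio were 1.19 for Prps1 to Prps2, 1.13 for Adss to Adssl1, 0.80 for Ctps to Ctps2, 0.52 for Rrm2 to Rrm2b and -0.30 for Impdh1 to Impdh2. In none of the 5 pairs did the groups overlap, and each gave p = 0.1 in an exact two-sided permutation test (n = 3 each, adjusted p = 0.1 over the 5 pairs), the smallest that 3 against 3 can give. Ratios of counts follow transcript length as well as abundance, so only their change between groups is read here. The sum of Prps1 and Prps2 went from 148 ± 6.34 to 197 ± 7.74 CPM and that of Ctps and Ctps2 from 172 ± 8.58 to 226 ± 8.34 CPM (mean ± SD, n = 3 each), while that of Adss and Adssl1 went from 709 ± 47.6 to 399.6 ± 8.65 CPM.

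**Figure D3:**
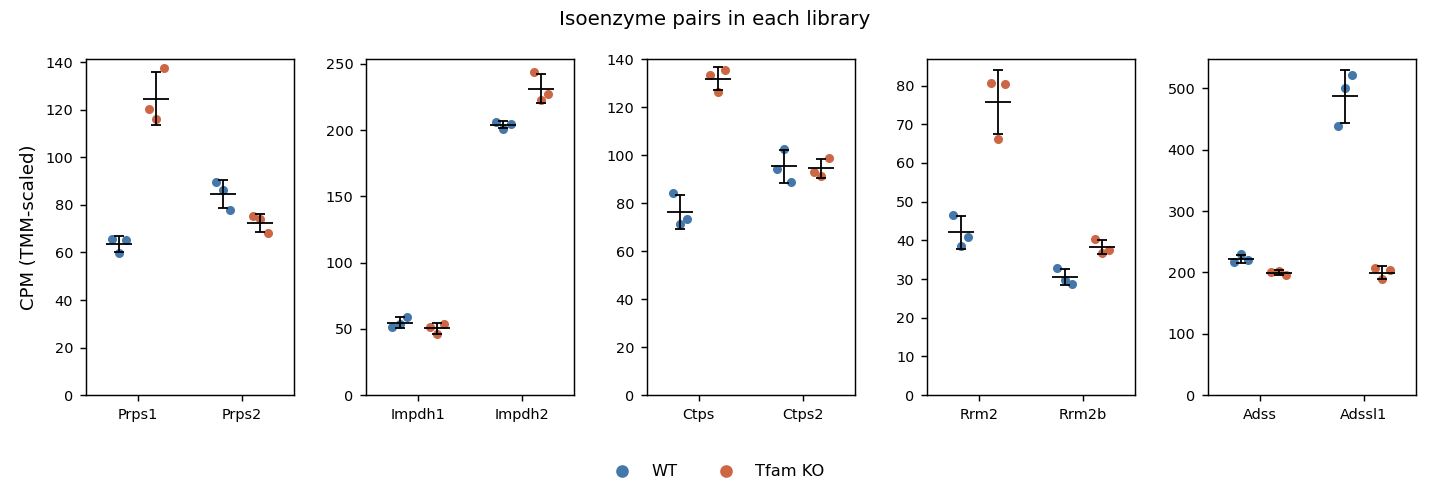
CPM of both genes of 5 isoenzyme pairs in each library (points; horizontal marks and bars are the mean and SD of 3 libraries), WT in blue and labelled Tfam knockout in orange, each panel with its own axis from 0. Prps1 and Ctps lie higher and Adssl1 lower in the labelled knockout libraries than in WT, without overlap; CPM follow transcript length, so heights of different genes are not compared.

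Compared as branches, the summed CPM of the measured genes was 497 ± 14.8 in WT and 374 ± 32.3 in labelled knockout libraries for the oxidative arm, or 0.753-fold, and every labelled knockout library lay below every WT library. The non-oxidative arm was at 793 ± 18.2 in WT and 781 ± 62.9 in labelled knockout libraries, or 0.985-fold, with overlapping groups, and 1.05-fold with library totals as the only scaling. Phosphoribosyl pyrophosphate synthesis was at 148 ± 6.33 in WT and 197 ± 7.74 in labelled knockout libraries, or 1.33-fold. Purine ring synthesis was at 779 ± 44.1 in WT and 861 ± 27.99 in labelled knockout libraries, or 1.11-fold, and the steps from IMP to GMP and AMP at 554 ± 6.31 in WT and 579 ± 16.1 in labelled knockout libraries, or 1.04-fold. Pyrimidine synthesis was at 445 ± 22.2 in WT and 574 ± 11.1 in labelled knockout libraries, or 1.29-fold, and deoxynucleotide synthesis at 333 ± 6.02 in WT and 450.2 ± 34.6 in labelled knockout libraries, or 1.35-fold. Salvage was at 711 ± 4.85 in WT and 678 ± 31.4 in labelled knockout libraries, or 0.952-fold, and 1.02-fold with library totals. As listed, all of the synthesis branches from ribose activation onward had higher sums in each labelled knockout library than in any WT library. The oxidative arm, measured without G6pdx, had lower ones. The gap was narrow for the purine ring (829.8 CPM in WT replicate 1, 832.6 CPM in knockout replicate 2). It was also narrow after IMP (559.8 CPM in WT replicate 2, 564.1 CPM in knockout replicate 2). That branch leaves out Adssl1, which fell from a mean of 487 to 200 CPM. The sum of Adss and Adssl1 went from 709 to 399.6 CPM, so the rise after IMP holds only for the listed genes. A sum is led by its most counted genes, and differences between branches were not tested. The median log2 fold changes, which weigh each gene alike, were -0.42 for the oxidative arm, 0.19 for the non-oxidative arm, 0.37 for ribose activation, 0.27 for the purine ring, 0.03 after IMP, 0.34 for pyrimidines, 0.58 for deoxynucleotides and -0.08 for salvage. With library totals the median of all genes moved up by 0.0991 and the share of calls that were higher went from 48.2% to 61.8%, so changes of about that size depend on the scaling.

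**Figure D4:**
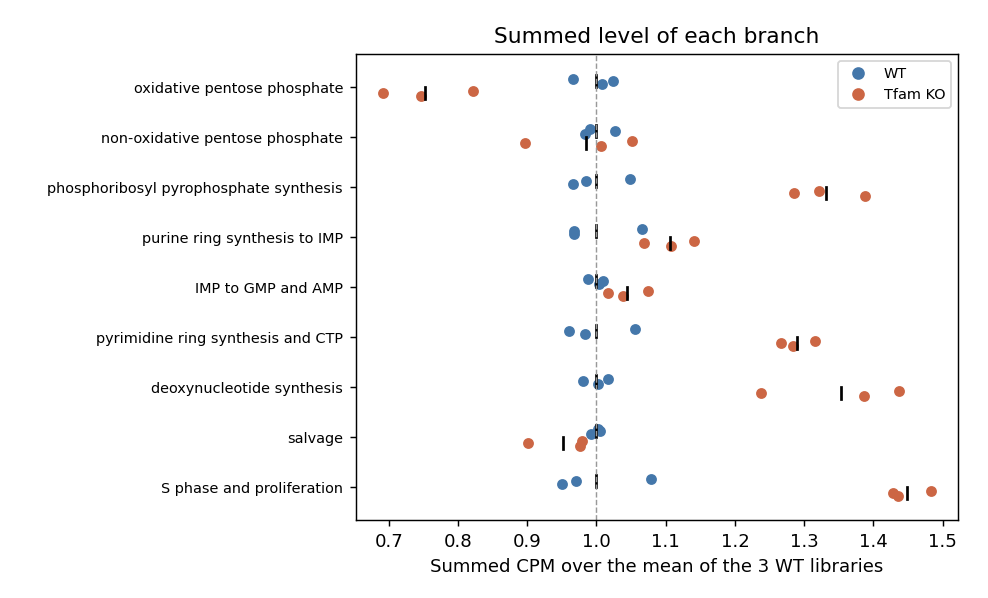
Summed CPM of the measured genes of each branch, and of the S phase and proliferation list, over its mean in the 3 WT libraries (points are libraries, vertical marks are group means; the axis does not start at 0). The oxidative arm, measured without G6pdx, lies left of the WT points at 0.753-fold. The synthesis branches, which leave out Adssl1, lie right of the WT points, up to 1.35-fold for deoxynucleotides.

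Compared per length, the WT level was highest for Pgls (262 CPM per kb of its principal transcript), Hprt (257), Taldo1 (204), Tkt (148) and Pgd (119), all genes of the pentose phosphate pathway or of salvage. Impdh2 (109.9) and Paics (99.05) led the synthesis genes. The lowest tested levels were those of Dck (5.08), Gmps (9.03, on a transcript annotated at 8.11 kb), Tyms (9.88) and Rpia (11.1). On this scale Prps1 went from 32.3 to 63.4, Ctps from 28.3 to 48.7, Rrm1 from 31.5 to 47.2, Rrm2 from 19.2 to 34.5 and Tyms from 9.88 to 15.7 CPM per kb. Prps1 and Prps2 were thus at 32.3 and 22.8 CPM per kb in WT, so Prps1 was already the higher of the pair per length, and at 63.4 and 19.6 CPM per kb in labelled knockout libraries.

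Transcription factors known as regulators of these enzymes were measured in 10 of 12 cases, and 7 rose and 2 fell, against 21.3% and 22.9% of all tested genes. Myc, which binds E-boxes and is known to drive nucleotide synthesis genes, was at 4.83, 4.95 and 5.24 CPM in WT and 16.8, 18.1 and 14.8 CPM in labelled knockout libraries. It rose by 1.73 (SE 0.146, adjusted p = 5.51e-08), while its partner Max fell by 0.35 (SE 0.0705, adjusted p = 7.01e-04). The cell cycle factors E2f1 (0.41), E2f2 (0.52) and E2f3 (0.44) rose, Srebf1 fell by 0.33, and Trp53 did not pass (0.02). Atf4 rose by 0.40 (SE 0.0880, adjusted p = 0.00137). Srebf2 rose by 0.20 (SE 0.0701, adjusted p = 0.0255), a call lost without WT replicate 2 or knockout replicate 3 and with the replicate block. The canonical E-box CACGTG, which reads the same on both strands, was found in the windows of Atic, Dtymk, Impdh2, Nme1, Paics and Tyms, or 17.6% of the 34 matched genes against 8.09% of all genes. The stretches of the 5 tested ones are shown, E-box in capitals, because they set the motif beside the values above.
Tyms (chr5:30073669-30073698, minus strand): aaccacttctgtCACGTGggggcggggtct
Impdh2 (chr9:108560314-108560343, plus strand): gagctcgataagCACGTGgttacccagctc
Paics (chr5:76951087-76951116, plus strand): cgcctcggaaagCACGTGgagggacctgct
Atic (chr1:71557137-71557155, plus strand): ggacctcggggtCACGTGg
Dtymk (chr1:93802065-93802094, minus strand): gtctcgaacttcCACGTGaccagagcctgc
Of these 5 genes Tyms and Impdh2 rose and Paics, Atic and Dtymk did not pass, while Prps1, Ctps, Rrm1 and Rrm2 had no such E-box in the window. Nfe2l2, an activator of pentose phosphate genes under oxidative stress, rose by 0.18 (adjusted p = 0.0363), a call that held only without knockout replicate 1 among the fits that each left out a library (adjusted p up to 0.1355 in the others). The motif TGACNNNGC of such genes, searched on both strands, was in the windows of G6pdx, Pgd, Rrm2, Cad, Ctps2, Uck2, Adk, Dck and Nme1 (26.5%, against 14% of all genes), of which Cad, Rrm2 and Uck2 rose and Pgd fell. A match is no evidence of binding, and its absence says only that these letters are not in the window. The shares given for all genes cover 27025 genes with a promoter, tested or not, so no motif is read as enriched.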

How the data were processed

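The submitters' processing notes name featureCounts 2.0.0, HISAT2 2.1.0, SAMtools 1.9, bcl2fastq 2.17 and the build GRCm39. Counting options were not given in the sources used here. The authors deposited raw whole-number counts per gene and a second table of log2 values, which, from the values, are log2 of the count scaled by the library total plus 8. Poly(A) RNA was made into libraries with a kit that does not mark strand, per the labels' protocols. The counts gave all main results, and the deposited log2 values 1 alternative.

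Genes were tested over the whole table with edgeR 4.0.16 (R 4.3.3) after filterByExpr and TMM scaling (glmQLFit and glmQLFTest, no covariates, Benjamini-Hochberg over 13403 genes, adjusted p below 0.05). Each standard error is the fold change (log2) divided by the root of F. The step was also run on simulated data with a single fixed dispersion. Its outcome there is not given and is not used as support for small changes. Pairs were compared by an exact permutation test of the log2 count ratio. Lengths, exon overlaps and copies (BLAST 2.17.0) came from GENCODE M21 on GRCm38, promoters from RefSeq on GRCm38.p6 (34 of 36 genes matched). Alternatives were DESeq2 1.42.0, limma-voom and limma 3.58.1 on the log2 table, other scalings and filters, the replicate number as a block, and each library left out.

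Named genes are the 36 genes, pair partners, Tfam and, per related list, up to 4 called genes with the largest change at a mean of at least 1 CPM, or any where 5 or fewer moved one way. Impdh2-ps and genes that overlap a listed gene were named after their values were seen. The same holds for Pcna, Ccne1, Ccne2, Trp53, Nfe2l2, Atf4, Srebf2 and the cell type markers that passed. A gene that the rule takes is not reported here. The genes and lists were chosen with earlier results of these data known.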

Additional observations from a re-analysis of the deposited data

How the results depend on the processing

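The number of genes of the set that rose, 16, ran from 13 to 17 over the 9 alternatives that kept all libraries and from 12 to 17 when each library was left out. The number that fell, 5, was 3 in limma on the authors' log2 table and 2 with library totals, and from 3 to 5 when each library was left out. Of 480 values under the 15 alternatives, 420 kept their direction and side of the threshold, 33 lost a call, 6 gained one and 21 changed sign, all of the last in genes that did not pass. Paics was at 0.0812 in the authors' log2 table and 0.0796 with library totals, and from -0.063 to 0.0306 when each library was left out. Ctps2 was at 0.0893 and 0.0875 in those fits and from -0.0522 to 0.052. With a filter of 5 CPM, Atic was at -0.0005, Dtymk at -0.0013 and Dck at -0.008. When each library was left out, Atic ran from -0.0249 to 0.0817, Dtymk from -0.104 to 0.154, Dut from -0.0115 to 0.128 and Dck from -0.0504 to 0.0436. The causes were not tested. The differences of the 5 pair ratios kept their sign throughout. The replicate numbers were also fitted as a block, which gave 13 genes higher, 4 lower and 5255 of all genes called (5926 without it). Deviations of same-numbered libraries correlated at -0.104, -0.114 and 0.0395, and those of differently numbered ones at -0.0478 to 0.152. So few libraries cannot show whether same-numbered samples were handled together, and the labels do not say. With 3 libraries a group, small differences such as those of Rpia, Taldo1 and Adk were not resolved, and a p that misses the threshold does not show that levels were equal. No protein, metabolite or flux was measured.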

Other observations

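Of 14 listed kinases that convert nucleoside mono- and diphosphates, 12 were tested, and 2 of them rose and 4 fell, against 21.3% and 22.9% of all tested genes. Their median was 0.01 on the log2 scale. The mitochondrial adenylate kinase Ak4 was at 152, 159 and 156 CPM in the WT libraries and 57.03, 47.8 and 56.1 CPM in the libraries labelled Tfam knockout. It fell by 1.54 (SE 0.0807, edgeR adjusted p = 1.32e-10), more than any gene of the synthesis routes moved. The cytosolic Ak1 fell by 1.47 (SE 0.132, adjusted p = 1.20e-07) from a mean of 21.6 to 7.88 CPM. Cmpk2, a mitochondrial pyrimidine monophosphate kinase that is also an interferon-induced gene, rose 2.33-fold (log2 1.22, SE 0.118, adjusted p = 3.07e-07), from 11.7, 14.7 and 12 CPM to 32.3, 28.9 and 27.8 CPM. Ak5 rose by 0.86 from 1.77 CPM (SE 0.271, adjusted p = 0.0158), a call lost without WT replicate 2.

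Among genes of nucleotide breakdown 7 fell and 3 rose, of 19 tested and 22 listed, against 22.9% and 21.3% of all tested genes. Their median was -0.17. Cytidine deaminase (Cda) fell by 1.279 (SE 0.150, adjusted p = 2.67e-06), from 16.8, 24.9 and 22.3 CPM to 8.97, 9.08 and 8.02 CPM. Xanthine dehydrogenase (Xdh), which makes uric acid, fell by 0.78 (SE 0.0799, adjusted p = 5.80e-07), from 103, 92.7 and 92.4 CPM to 52.2, 56.9 and 58.4 CPM. In neither gene did the groups overlap. Lacc1, a macrophage enzyme with purine nucleoside phosphorylase activity, rose by 0.81 (SE 0.110, adjusted p = 1.37e-05), from a mean of 16.1 to 28.1 CPM. The AMP deaminase Ampd3 rose by 0.75 (SE 0.202, adjusted p = 0.00621), with knockout replicate 1 at 12.6 CPM inside the WT range of 9.97 to 13.6 CPM, and this call was lost with DESeq2 and without knockout replicate 2. The mitochondrial nucleotidase Nt5m rose by 0.34 (SE 0.0988, adjusted p = 0.00950).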
